A study of Homo sapiens with 16 samples.

Results

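Secreted matrix proteins other than collagens were followed through the series by 10 genes. They are FBLN1, VCAN, CTHRC1, FN1, SPARC, TNC, THBS1, THBS2, LUM and DCN, chosen by symbol as common non-collagen glycoproteins and proteoglycans of the extracellular matrix, and all 10 were found among the 57820 genes counted. The choice was made with earlier results of these data known. RNA was sequenced from 2 mesenchymal triple-negative breast cancer cell lines, MDA-MB-436 and MDA-MB-231, each carrying the 7TGP vector, in which Tcf binding sites drive eGFP and which also confers puromycin resistance. From each line, repeated flow sorting of the brightest and dimmest cells gave a Wnt reporter-positive subline (7TGP-POS) and a reporter-negative subline (7TGP-NEG), both of which are sorted pools and not single clones. Each subline was grown in low serum (0.5% FBS, collected on day 3) and in standard serum (10% FBS, collected on day 6), with 2 biological replicates per group, which made 16 libraries in 8 groups. All groups therefore share the reporter and the puromycin selection. The study's methods describe rRNA-depleted RNA for the low serum libraries and polyA RNA on another sequencer for the standard serum libraries, whereas the sample labels name the same stranded mRNA kit throughout. Serum, day and any difference in library type or sequencer cannot be told apart, and no test was run between the serum conditions. The study's methods also give a different base medium for each line, so line and medium cannot be told apart.

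The matrix around cells is built from collagens and from the glycoproteins and proteoglycans that bind them. Fibronectin is laid down as fibrils through integrins, fibulins bridge fibrils and basement membranes, and versican carries chondroitin sulfate chains and binds hyaluronan. SPARC, tenascin-C and the thrombospondins are matricellular proteins, which act mostly on adhesion, proteases and growth factors, while lumican and decorin are small leucine-rich proteoglycans that sit on collagen fibrils. In breast tumours most of these proteins are known chiefly as products of stromal fibroblasts, and cancer cells with mesenchymal features can also make them.

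Of the 10 genes, RefSeq start site windows (GRCh38.p14 table, 250 bases before the start) were held for 7, and those of 4 genes on which the results turn are shown. FBLN1 and VCAN are shown because they rose with the reporter in every comparison, and THBS1 and FN1 because their change depended on the line. Each was located on GRCh37 by an exact match and is given on the strand of its gene, without the bases that lie in an annotated exon of that gene. FBLN1 is chr22:45898513-45898711 (plus strand), VCAN is chr5:82767313-82767436 (plus strand), THBS1 is chr15:39873030-39873279 (plus strand) and FN1 is chr2:216300797-216301041 (minus strand). The FBLN1 window lies before its RefSeq start but inside the annotated gene, whose span begins upstream of it at chr22:45898118. Capitals mark the GC box GGGCGG, which Sp1-type factors bind, on either strand.
FBLN1: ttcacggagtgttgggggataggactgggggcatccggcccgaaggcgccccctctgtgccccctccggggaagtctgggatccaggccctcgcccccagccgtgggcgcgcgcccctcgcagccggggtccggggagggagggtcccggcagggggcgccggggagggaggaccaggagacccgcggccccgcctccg
VCAN: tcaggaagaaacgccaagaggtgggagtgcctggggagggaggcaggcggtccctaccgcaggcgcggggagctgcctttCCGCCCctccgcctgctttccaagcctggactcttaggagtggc
THBS1: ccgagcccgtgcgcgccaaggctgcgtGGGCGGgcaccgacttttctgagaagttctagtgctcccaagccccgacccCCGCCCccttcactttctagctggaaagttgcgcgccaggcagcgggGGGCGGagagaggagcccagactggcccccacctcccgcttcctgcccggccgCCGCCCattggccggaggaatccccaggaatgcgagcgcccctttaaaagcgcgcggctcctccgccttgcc
FN1: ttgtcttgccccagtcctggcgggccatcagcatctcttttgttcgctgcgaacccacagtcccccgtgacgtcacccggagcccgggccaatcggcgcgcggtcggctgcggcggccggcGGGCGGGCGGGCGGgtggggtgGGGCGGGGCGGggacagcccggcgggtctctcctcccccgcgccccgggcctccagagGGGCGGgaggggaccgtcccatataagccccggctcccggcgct
The core of the reporter's own Tcf site, TCAAAG, searched on both strands, was present in 11.2% of all 35116 windows of 250 bases and in 0 of the 7 windows of these genes. GGGCGG was present in 42.6% of all windows and in 5 of the 7, those of FN1, VCAN, TNC, THBS1 and FBLN1. The FBLN1 match starts 36 bases before the RefSeq start, within the 51 bases not shown. No match says only that these letters are not in these windows.

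Library totals lay between 27918418 and 32667756 counts in low serum and between 31827130 and 46044073 in standard serum. Levels are given as normalised CPM, that is CPM over the TMM-scaled protein-coding library size, and a gene was called when the edgeR quasi-likelihood test gave a Benjamini-Hochberg adjusted p below 0.05 and a change of at least 1 on the log2 scale. All 10 genes passed the filter of 10 counts summed over 8 libraries in low serum and 9 in standard serum, where DCN had 1 count in all. VIM lay between 672 and 5520 normalised CPM over the group means, CDH1 reached at most 0.307 and ESR1 at most 0.699. Of the mesenchymal markers CDH2 was high only in MDA-MB-436 (133 to 237, against at most 1.71 in MDA-MB-231), and of the epithelial markers KRT19 was high in MDA-MB-231 (631 to 926) and at most 0.934 in MDA-MB-436.

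Measured per length as TPM, 4 genes made up most of the transcripts of the 10. THBS1, FN1 and TNC together with FBLN1 held nearly all of their summed TPM in every group, and the order among them differed by line and by reporter state. In low serum THBS1 led in both MDA-MB-231 sublines, with 53.6% of the summed TPM in 7TGP-NEG and 66.7% in 7TGP-POS. In MDA-MB-436 7TGP-NEG of low serum TNC led with 46.8%, and in MDA-MB-436 7TGP-POS FBLN1 led with 30.2%, against 10.3% in 7TGP-NEG. In standard serum FN1 led in MDA-MB-231 7TGP-NEG with 65.1% and held 23.6% in 7TGP-POS, where THBS1 led with 48.4%. In MDA-MB-436 of standard serum TNC led in both sublines, with 57.6% in 7TGP-NEG and 37.6% in 7TGP-POS, and FBLN1 held 8.40% and 30.5% of the sum. These shares are descriptions of group means of 2 libraries and were not tested.

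**Figure D1:**
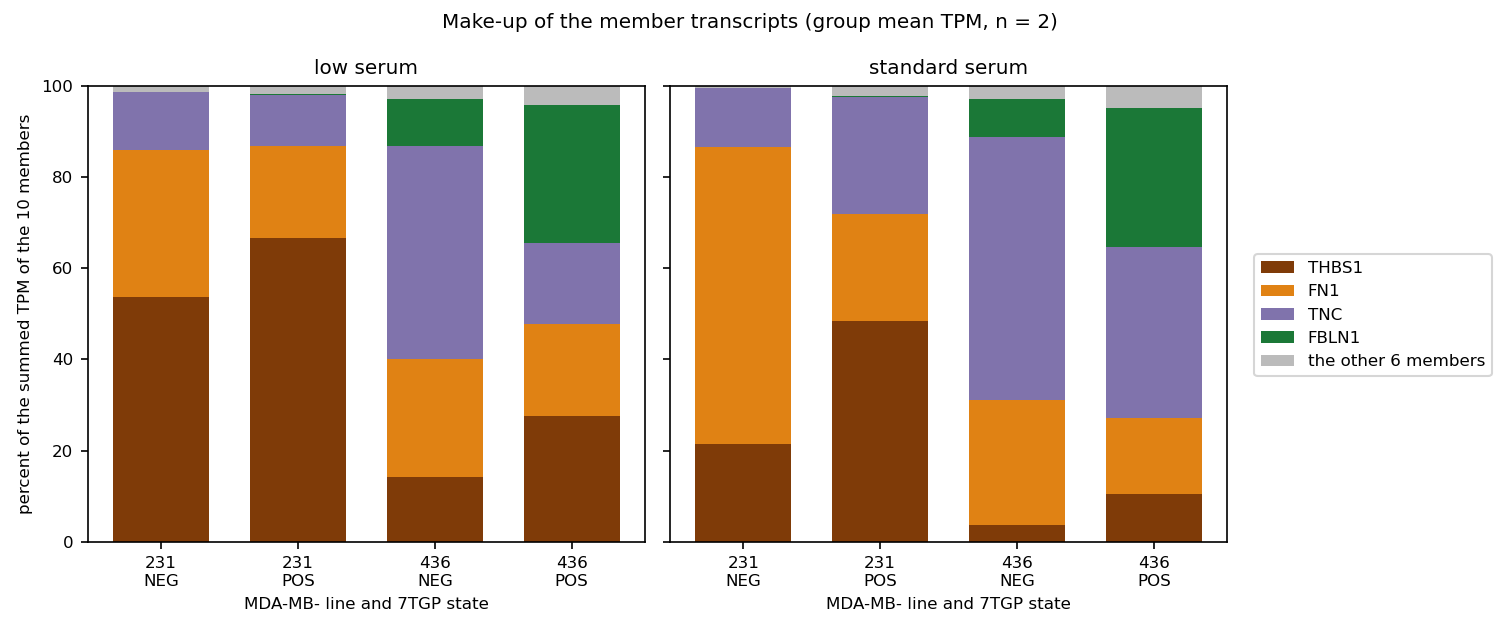
Percent of the summed TPM of the 10 genes taken by THBS1, FN1, TNC, FBLN1 and the other 6, for the 4 groups of each serum condition (stacked bars, group mean of 2 libraries). FBLN1 takes 30.2% and 30.5% in the MDA-MB-436 7TGP-POS groups and at most 0.219% in the MDA-MB-231 groups.

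The first question was which of the 10 genes differ between reporter-positive and reporter-negative cells of the same line. In MDA-MB-231, 3 of 10 genes were called in low serum, all higher in 7TGP-POS, against 5.90% of the 16069 genes tested, and 7 of 9 were called in standard serum (5 higher and 2 lower), against 7.69% of 15414. In MDA-MB-436, 7 of 10 were called in low serum, all higher, against 10.5% of all genes, and 5 of 9 in standard serum, all higher, against 12.5%. Because the 10 genes were chosen with earlier results of these data known, these counts are descriptions and no test of the group. The median log2 fold change over the tested members was 0.56 and 1.11 in MDA-MB-231 (low and standard serum) and 2.04 and 2.78 in MDA-MB-436, where the medians over all genes lay between -0.01 and 0.01. The member medians take in fitted values that are no measure of size. These are values of CTHRC1, THBS2 and LUM in MDA-MB-436 near 0 counts, and of DCN in low serum. FBLN1, VCAN and CTHRC1 were called higher in all 4 comparisons, as were 55 of the 15286 genes tested in both serum conditions (0.360%). These are RNA levels of whole cultures, in which fewer cells making a transcript and less transcript per cell cannot be told apart. Nothing states that the replicates were separate sorts, so the p-values measure the spread between the 2 samples of a group.

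**Figure D2:**
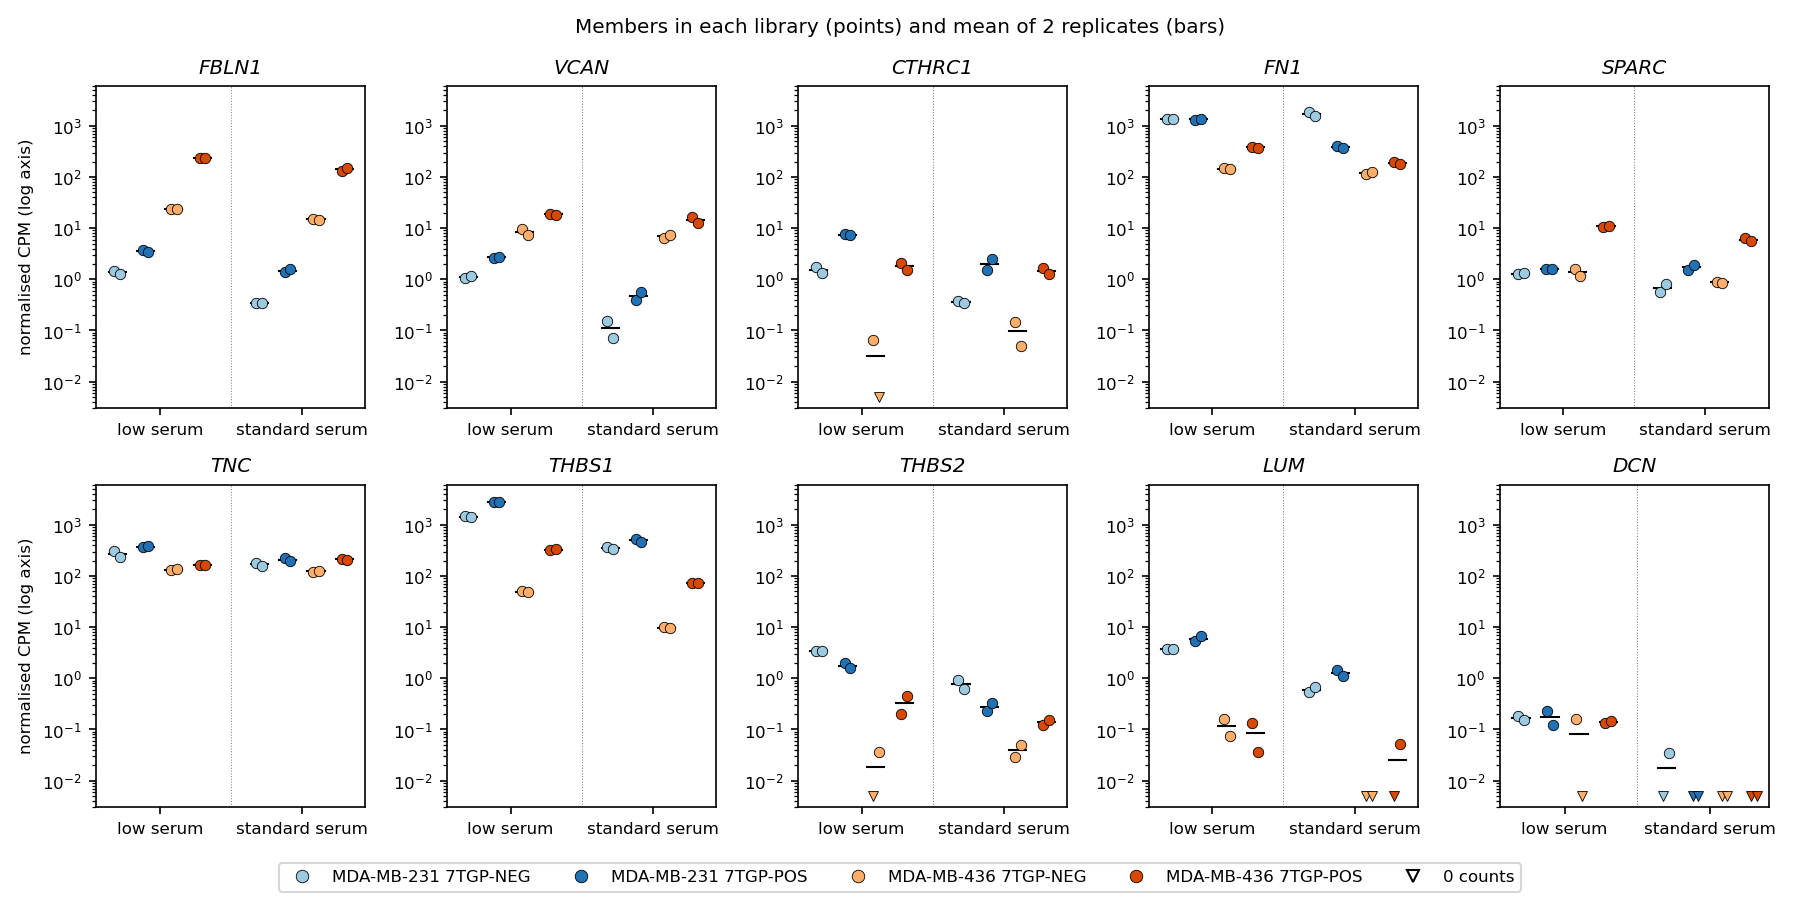
Normalised CPM of each gene in every library (points, log axis; triangles at the foot mark 0 counts) with the mean of 2 replicates as a bar, low serum to the left of the dotted line and standard serum to the right. FBLN1 and VCAN climb in the same order of the 4 groups in both serum conditions, and FN1 in MDA-MB-231 splits by reporter state in standard serum only.

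FBLN1, which encodes fibulin-1, a glycoprotein of basement membranes and elastic fibres (ENSG00000077942, GRCh37 chr22:45898118-45997015, plus strand), rose in all 4 comparisons. In low serum its normalised CPM was 1.44 and 1.29 in MDA-MB-231 7TGP-NEG, 3.67 and 3.36 in MDA-MB-231 7TGP-POS, 23.5 and 24.1 in MDA-MB-436 7TGP-NEG, and 231 and 237 in MDA-MB-436 7TGP-POS. The 4 groups did not overlap, and MDA-MB-436 7TGP-NEG already stood above MDA-MB-231 7TGP-POS. The log2 fold change of 7TGP-POS against 7TGP-NEG was 1.36 (SE 0.172, adjusted p = 1.45e-08) in MDA-MB-231 and 3.30 (SE 0.061, adjusted p = 4.83e-35) in MDA-MB-436. In standard serum the values were 0.344 and 0.351, then 1.37 and 1.58, in the MDA-MB-231 sublines, and 15.4 and 14.3, then 132 and 148, in those of MDA-MB-436. The order of the groups was the same as in low serum, with log2 fold changes of 2.08 (SE 0.253, adjusted p = 3.96e-06) and 3.24 (SE 0.0931, adjusted p = 1.33e-14). The MDA-MB-231 values of standard serum rest on 10 to 53 counts per library. In that line the change fell under the fold threshold on log2(TPM + 1), which shrinks low genes (0.45 at low and 0.56 at standard serum), and at low serum on log2(TPM + 0.1) (0.99). Protein-coding genes also held unequal shares of its low serum TPM, 50.7% and 52.3% in 7TGP-NEG against 46.8% and 41.0% in 7TGP-POS.

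VCAN encodes versican, the large chondroitin sulfate proteoglycan that binds hyaluronan (ENSG00000038427, GRCh37 chr5:82767437-82878122, plus strand). In low serum it measured 1.07 and 1.17 normalised CPM in MDA-MB-231 7TGP-NEG and 2.66 and 2.79 in 7TGP-POS, and 9.43 and 7.50 against 19.3 and 18.2 in MDA-MB-436. No groups overlapped. The log2 fold changes were 1.27 (SE 0.228, adjusted p = 1.38e-05) in MDA-MB-231 and 1.14 (SE 0.109, adjusted p = 8.24e-12) in MDA-MB-436. In standard serum VCAN was close to the limit of detection in MDA-MB-231, with 5 and 2 counts in 7TGP-NEG and 12 and 19 in 7TGP-POS, a log2 fold change of 2.03 (SE 0.549, adjusted p = 0.0081). The MDA-MB-436 libraries of standard serum measured 6.50 and 7.34 in 7TGP-NEG against 16.8 and 12.5 in 7TGP-POS, a log2 fold change of 1.08 (SE 0.154, adjusted p = 1.62e-05). The MDA-MB-231 call of standard serum was lost without replicate 2 of 7TGP-NEG or of 7TGP-POS (log2 fold changes 1.60 and 1.73, adjusted p over 18 alternatives from 0.00277 to 0.533). The MDA-MB-436 change fell just below the fold threshold without replicate 2 of 7TGP-NEG in low serum (0.99), and without replicate 1 of 7TGP-NEG (0.99) or of 7TGP-POS (0.83) in standard serum. On log2(TPM + 1) VCAN was called in none of the 4 comparisons by limma (0.21 and 0.11 in MDA-MB-231, 0.62 and 0.84 in MDA-MB-436, at low and standard serum), and on log2(TPM + 0.1) it stayed under the fold threshold in both MDA-MB-231 comparisons (0.76 and 0.69) and at low serum in MDA-MB-436 (0.87).

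CTHRC1, a secreted glycoprotein known from injured vessels and from Wnt signalling through the planar cell polarity branch (ENSG00000164932, GRCh37 chr8:104383766-104395217, plus strand), was close to 0 counts in MDA-MB-436 7TGP-NEG. In MDA-MB-231 of low serum its normalised CPM was 1.70 and 1.33 in 7TGP-NEG and 7.53 and 7.21 in 7TGP-POS, without overlap, a log2 fold change of 2.28 (SE 0.195, adjusted p = 8.5e-13). In standard serum the same sublines measured 0.376 and 0.351 against 1.53 and 2.48, a log2 fold change of 2.46 (SE 0.365, adjusted p = 3.58e-05). In MDA-MB-436 of low serum 7TGP-NEG held 2 and 0 counts and 7TGP-POS 63 and 41, a ratio of pooled normalised levels of 53.1 (exact 95% counting interval 14.3 to 444, adjusted p of the fit = 1.76e-11). In standard serum those sublines held 5 and 2 counts against 81 and 49, a log2 fold change of 3.92 (SE 0.463, adjusted p = 1.5e-06). Counting intervals cover counting error only, since the reads carried no molecular identifiers. In both serum conditions the level was highest in MDA-MB-231 7TGP-POS, followed by MDA-MB-436 7TGP-POS, whose replicates overlapped those of MDA-MB-231 7TGP-NEG in low serum and, under standard serum, those of MDA-MB-231 7TGP-POS.

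FN1, which encodes fibronectin, the adhesive glycoprotein that cells assemble through integrins (ENSG00000115414, GRCh37 chr2:216225163-216300796, minus strand), moved in opposite directions in the 2 lines in standard serum. There it measured 1833 and 1545 normalised CPM in MDA-MB-231 7TGP-NEG and 403 and 365 in 7TGP-POS, and 112 and 123 against 196 and 177 in MDA-MB-436. The reporter-positive cells were thus the lower group in MDA-MB-231 and the higher group in MDA-MB-436, without overlap in either. FN1 fell in MDA-MB-231 7TGP-POS with a log2 fold change of -2.14 (SE 0.0952, adjusted p = 3.75e-11). In MDA-MB-436 the log2 fold change was 0.66 (SE 0.093, adjusted p = 1.84e-05), past the adjusted p threshold and under the fold threshold. In low serum the MDA-MB-231 sublines overlapped, at 1371 and 1374 in 7TGP-NEG and 1302 and 1383 in 7TGP-POS, with a log2 fold change of -0.03 (SE 0.049, adjusted p = 0.659). MDA-MB-436 of low serum measured 147 and 146 against 382 and 375, and FN1 rose with a log2 fold change of 1.37 (SE 0.0516, adjusted p = 1.42e-24). The gene counts do not separate fibronectin splice forms.

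SPARC, a collagen- and calcium-binding matricellular protein (ENSG00000113140, GRCh37 chr5:151040657-151066536, minus strand), was low outside MDA-MB-436 7TGP-POS. In low serum it measured 1.26 and 1.33 normalised CPM in MDA-MB-231 7TGP-NEG, 1.61 and 1.60 in MDA-MB-231 7TGP-POS, 1.57 and 1.15 in MDA-MB-436 7TGP-NEG, and 10.8 in each library of MDA-MB-436 7TGP-POS. The latter group stood apart, whereas the replicates of MDA-MB-436 7TGP-NEG overlapped those of MDA-MB-231 7TGP-NEG. SPARC rose in MDA-MB-436 7TGP-POS with a log2 fold change of 2.97 (SE 0.168, adjusted p = 1.28e-18), and in MDA-MB-231 the value was 0.31 (SE 0.251, adjusted p = 0.357). In standard serum MDA-MB-231 measured 0.564 and 0.806 in 7TGP-NEG against 1.53 and 1.88 in 7TGP-POS, and SPARC rose there with a log2 fold change of 1.33 (SE 0.266, adjusted p = 0.000716). This call rests on 18 to 63 counts per library, and on log2(TPM + 1) the change fell under the fold threshold (0.59). MDA-MB-436 of standard serum measured 0.899 and 0.844 against 6.29 and 5.71, a log2 fold change of 2.78 (SE 0.206, adjusted p = 3.81e-09).

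TNC encodes tenascin-C, a hexameric matricellular protein of remodelling tissue (ENSG00000041982, GRCh37 chr9:117781854-117880486, minus strand), and it was abundant in all 8 groups. Its normalised CPM in low serum was 305 and 240.2 in MDA-MB-231 7TGP-NEG, 371 and 379 in MDA-MB-231 7TGP-POS, 129.9 and 134 in MDA-MB-436 7TGP-NEG, and 165 and 167 in MDA-MB-436 7TGP-POS. The 7TGP-POS libraries lay above the 7TGP-NEG libraries of their line, by log2 fold changes of 0.46 (SE 0.0981, adjusted p = 0.0077) and 0.33 (SE 0.101, adjusted p = 0.0283). In standard serum the MDA-MB-231 sublines measured 182 and 157 against 222 and 198, and the MDA-MB-436 sublines 121 and 127 against 219 and 201. The log2 fold changes there were 0.31 (SE 0.0846, adjusted p = 0.00858) and 0.76 (SE 0.0849, adjusted p = 8.12e-07). All 4 values passed the adjusted p threshold and stayed under the fold threshold, so TNC was not called by reporter state.

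THBS1 encodes thrombospondin-1, a trimeric matricellular protein that can activate latent TGF-beta and inhibits angiogenesis (ENSG00000137801, GRCh37 chr15:39873280-39891667, plus strand). In low serum it measured 1459 and 1399 normalised CPM in MDA-MB-231 7TGP-NEG and 2738 and 2838 in 7TGP-POS, and 49.8 and 49.7 against 322 and 329.8 in MDA-MB-436. Every reporter-positive library lay above the reporter-negative libraries of its line, and even the reporter-positive MDA-MB-436 libraries lay below all those of MDA-MB-231. The log2 fold change was 0.96 (SE 0.0498, adjusted p = 1.55e-19) in MDA-MB-231, just under the fold threshold, and 2.71 (SE 0.0562, adjusted p = 2.19e-33) in MDA-MB-436, where THBS1 rose. With all biotypes in the fit the MDA-MB-231 value was 1.00 and was called. In standard serum MDA-MB-231 measured 365 and 334 against 525 and 465, a log2 fold change of 0.50 (SE 0.0767, adjusted p = 4.96e-05). MDA-MB-436 of standard serum measured 9.92 and 9.75 against 71.5 and 73.7, and THBS1 rose with a log2 fold change of 2.88 (SE 0.0901, adjusted p = 2.85e-14).

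THBS2, its close relative thrombospondin-2 (ENSG00000186340, GRCh37 chr6:169615875-169654145, minus strand), was the lower in 7TGP-POS of MDA-MB-231. There it measured 3.41 and 3.44 normalised CPM in 7TGP-NEG and 1.95 and 1.60 in 7TGP-POS of low serum, a log2 fold change of -0.94 (SE 0.222, adjusted p = 0.000602), under the fold threshold. In standard serum the values were 0.939 and 0.631 against 0.228 and 0.328, and THBS2 fell with a log2 fold change of -1.49 (SE 0.428, adjusted p = 0.0117). The groups did not overlap in either serum condition, and 7TGP-POS was the lower one in both. That call was lost with DESeq2 (adjusted p = 0.189, over 18 alternatives from 0.011 to 0.189) and without replicate 1 of either subline. MDA-MB-436 held hardly any THBS2, with 0 and 1 counts in 7TGP-NEG and 6 and 12 in 7TGP-POS of low serum, a ratio of 18.4 (exact 95% counting interval 2.90 to 766, adjusted p of the fit = 0.000869). This low serum call was lost on log2(TPM + 1) (0.15) and log2(TPM + 0.1) (0.99). In standard serum MDA-MB-436 held 1 and 2 counts against 6 and 6, a ratio of 3.40 (exact 95% counting interval 0.918 to 18.8, adjusted p of the fit = 0.106), so no difference was detectable at this depth.

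LUM and DCN encode small leucine-rich proteoglycans, and only LUM in MDA-MB-231 was read often enough to compare. LUM, lumican (ENSG00000139329, GRCh37 chr12:91496406-91505271, minus strand), measured 3.74 and 3.78 normalised CPM in MDA-MB-231 7TGP-NEG and 5.25 and 6.60 in 7TGP-POS of low serum, a log2 fold change of 0.65 (SE 0.169, adjusted p = 0.00183) under the fold threshold. In standard serum it measured 0.532 and 0.666 against 1.47 and 1.13 and rose with a log2 fold change of 1.11 (SE 0.364, adjusted p = 0.0253), a call lost with DESeq2 (adjusted p = 0.266, over 18 alternatives from 0.00131 to 0.266) and without replicate 1 of either subline. In MDA-MB-436 LUM held 7 counts in 7TGP-NEG and 5 in 7TGP-POS over both low serum libraries, and 0 and 2 in standard serum, so the sublines could not be compared. DCN, decorin, its neighbour on chromosome 12 (ENSG00000011465, GRCh37 chr12:91534261-91576994, minus strand), held 0 to 6 counts in each low serum library and 1 count in all of standard serum. The depth allows no statement on DCN beyond these few reads, and its low serum values by reporter state (adjusted p = 0.976 and 0.584) carry no direction.

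**Figure D3:**
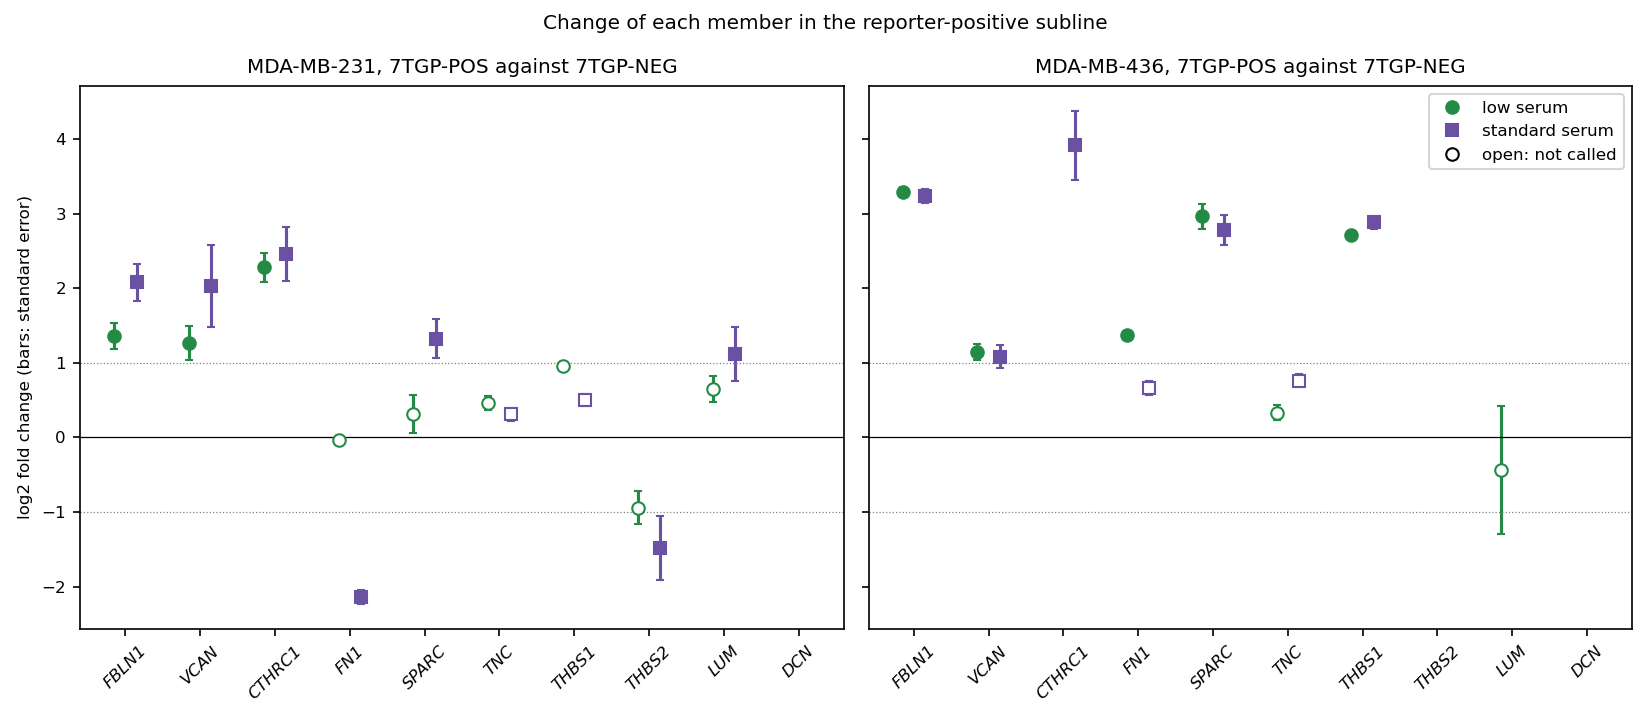
Log2 fold change of 7TGP-POS against 7TGP-NEG for each gene (points, with standard errors as bars) in MDA-MB-231 (left) and MDA-MB-436 (right), circles for low serum and squares for standard serum, filled where called; dotted lines mark a change of 1. DCN, and MDA-MB-436 values that rest on 3 or fewer counts in a group, are left out. FN1 in MDA-MB-231 sits at -0.03 in low serum and -2.14 in standard serum.

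The second question was whether the 2 lines respond alike, which was tested as the difference of the reporter changes (MDA-MB-231 minus MDA-MB-436). In low serum 6 of the 10 genes were called, against 11.7% of all genes, and in standard serum 5 of 9, against 13.8%, all of them with the change in MDA-MB-436 the more positive. For FBLN1 the difference was -1.93 on the log2 scale (SE 0.206, adjusted p = 2.14e-10) in low serum and -1.16 (SE 0.319, adjusted p = 0.00911) in standard serum, where it was lost without either replicate of MDA-MB-231 7TGP-NEG (adjusted p over 17 alternatives from 2.75e-06 to 0.08). For THBS1 it was -1.75 (SE 0.0737, adjusted p = 1.53e-22) and -2.38 (SE 0.117, adjusted p = 2.56e-11). For FN1 it was -1.40 (SE 0.0709, adjusted p = 5.88e-20) and -2.80 (SE 0.132, adjusted p = 6.91e-11), and for SPARC -2.65 (SE 0.319, adjusted p = 4.07e-09) and -1.46 (SE 0.358, adjusted p = 0.00305). CTHRC1 was called in low serum (adjusted p = 0.000345) and not in standard serum (adjusted p = 0.107). The low serum call of CTHRC1 was lost by limma on log2(TPM + 1) (-0.07, adjusted p = 0.814). THBS2, lower in 7TGP-POS of MDA-MB-231 and higher in that of MDA-MB-436, was called in both (adjusted p = 6.2e-05 and 0.0108). Both THBS2 calls fell under the fold threshold on log2(TPM + 1) (-0.66 and -0.38). The second rests on 3 counts in MDA-MB-436 7TGP-NEG and was also lost with DESeq2 and without replicate 1 of that group. No difference between the lines was called for VCAN (0.13, SE 0.255, adjusted p = 0.713 in low serum, and 0.95, SE 0.59, adjusted p = 0.222 in standard serum), which does not show that the lines responded alike. TNC was not called either, at 0.13 (SE 0.141, adjusted p = 0.514) and -0.45 (SE 0.12, adjusted p = 0.00507).

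The lines were also compared with each other within each reporter state, where by the study's methods line cannot be told apart from culture medium. Between the 7TGP-NEG sublines 8 of the 10 genes were called in low serum, against 41.9% of all genes, and 7 of 9 in standard serum, against 46.7%. Between the 7TGP-POS sublines 9 of 10 were called in low serum, against 38.9%, and 6 of 9 in standard serum, against 45.4%. FBLN1 and VCAN were the genes higher in MDA-MB-436 in all 4 comparisons, FBLN1 by a log2 fold change of 4.12 (SE 0.116) to 6.56 (SE 0.123) and VCAN by 2.78 (SE 0.136) to 5.86 (SE 0.326). The largest VCAN value, that of the 7TGP-NEG sublines in standard serum, rests on 7 counts in MDA-MB-231. It ran from 1.415 to 6.559 over 18 alternatives and was called in all of them. SPARC was called higher in MDA-MB-436 between the 7TGP-POS sublines (2.74, SE 0.168, adjusted p = 2.11e-18 in low serum and 1.81, SE 0.189, adjusted p = 6.4e-08 in standard serum), and not between the 7TGP-NEG sublines (0.09, SE 0.252, adjusted p = 0.75 and 0.36, SE 0.292, adjusted p = 0.271). THBS1 was lower in MDA-MB-436 in all 4, from -5.15 (SE 0.0957) to -2.77 (SE 0.0822), and FN1 from -3.84 (SE 0.103) to -1.04 (SE 0.0929). The smallest FN1 value, that of the 7TGP-POS sublines in standard serum, fell under the fold threshold without replicate 1 of MDA-MB-231 7TGP-POS (-0.97) or replicate 2 of MDA-MB-436 7TGP-POS (-0.95). TNC was lower in MDA-MB-436 in low serum (-1.05, SE 0.101, adjusted p = 2.82e-05 for 7TGP-NEG, and -1.17, SE 0.1, adjusted p = 1.3e-05 for 7TGP-POS), and the 7TGP-NEG call was lost without replicate 1 of MDA-MB-231 7TGP-NEG (-0.86). Both TNC calls were lost on the TPM scales (-0.62 and -0.63 for 7TGP-NEG, -0.81 and -0.82 for 7TGP-POS), as was the smallest FN1 call (-0.80 and -0.82). LUM stood at 36 counts in MDA-MB-231 7TGP-NEG against 0 in MDA-MB-436 7TGP-NEG of standard serum, at least 14.8-fold higher in MDA-MB-231 when 3 counts over the group are taken as the floor. THBS2 was higher in MDA-MB-231 7TGP-NEG by a ratio of 199 at low serum (183 counts against 1, exact 95% counting interval 35.3 to 7903) and of 19.8 at standard serum (48 against 3, 6.38 to 99.3). CTHRC1 was called lower in MDA-MB-436 except between the 7TGP-POS sublines of standard serum, where its log2 fold change was -0.45 (SE 0.268, adjusted p = 0.128). The 7TGP-NEG call of standard serum (-1.92, adjusted p = 0.0112) rests on 7 counts in MDA-MB-436, and it was lost without replicate 2 of MDA-MB-436 7TGP-NEG (-1.30, adjusted p = 0.131) and on log2(TPM + 1) (-0.48).

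The closest relatives of the 10 genes were counted from fixed lists. Of all genes tested, 5.90% and 7.69% were called in MDA-MB-231 and 10.5% and 12.5% in MDA-MB-436, in low and standard serum. Of 6 further fibulins and fibulin-like genes, which share the fibulin module, 3 were called higher in MDA-MB-436 7TGP-POS of low serum and 3 higher and 1 lower in standard serum, while in MDA-MB-231 1 was called lower with the reporter under each serum condition. EFEMP1 (fibulin-3) rose in MDA-MB-436 from 2.51 ± 0.650 (SD, n = 2) to 40.5 ± 2.03 normalised CPM at low serum, the log2 fold change being 4.03 (SE 0.102, adjusted p = 1.67e-27), and by 4.01 (SE 0.0997, adjusted p = 2.8e-15) in standard serum. FBLN2 rose in the same cells from 133.9 ± 0.607 to 705 ± 21.6 (2.40, SE 0.0503, adjusted p = 3.36e-33), and in standard serum by 1.84 (SE 0.104, adjusted p = 6.05e-09). In MDA-MB-231 of standard serum FBLN2 fell from 1.73 ± 0.231 to 0.642 ± 0.106 (-1.43, SE 0.279, adjusted p = 0.00125). HMCN1 rose in MDA-MB-436 of low serum (1.57, SE 0.179, adjusted p = 8.32e-10), FBLN7 fell there in standard serum (-1.79, SE 0.275, adjusted p = 2.96e-05), and FBLN5 fell in MDA-MB-231 of low serum (-1.31, SE 0.443, adjusted p = 0.0166). The medians of the list were 0.18 and -0.04 in MDA-MB-231 and 1.27 and 0.81 in MDA-MB-436, in low and standard serum.

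Among the other SPARC-related proteins, tenascins and thrombospondins, 0 of 8 genes tested at low serum and 0 of 6 at standard serum were called by edgeR in MDA-MB-231 (2 and 1 at an unadjusted p under 0.05, and 0 and 0 by DESeq2). In MDA-MB-436, 4 were called higher and 1 lower at low serum, 3 of these 5 also by DESeq2, and 3 higher and 1 lower at standard serum. The shares of all genes called were 5.90% and 7.69% in MDA-MB-231 and 10.5% and 12.5% in MDA-MB-436. SMOC1, a basement membrane relative of SPARC, rose from 4.73 ± 0.564 to 18.5 ± 2.45 normalised CPM in low serum (1.98, SE 0.124, adjusted p = 3.58e-17) and by 1.59 (SE 0.128, adjusted p = 1.24e-08) in standard serum. TNXB, a tenascin, also rose in MDA-MB-436, by 1.19 (SE 0.179, adjusted p = 3.57e-07) and 1.70 (SE 0.203, adjusted p = 1.72e-06). In MDA-MB-231 TNXB fell under the fold threshold (-0.89, adjusted p = 4.73e-10, and -0.74, adjusted p = 8.1e-05). The difference between the lines was called for TNXB (-2.08, adjusted p = 2.15e-11, and -2.44, adjusted p = 1.91e-07). COMP, the thrombospondin family member of cartilage, fell in MDA-MB-436 by 1.78 (SE 0.377, adjusted p = 0.000111) and 1.52 (SE 0.295, adjusted p = 0.000449). The medians were 0.08 and 0.31 in MDA-MB-231 and 1.19 and 1.45 in MDA-MB-436.

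The other proteoglycans were counted in the same way. Of 18 tested at low and 15 at standard serum, 1 and 0 were called by edgeR in MDA-MB-231 (6 and 0 at an unadjusted p under 0.05, and 0 and 0 by DESeq2), the first being FMOD, which fell from 1.42 ± 0.137 to 0.686 ± 0.0156 (-1.05, SE 0.335, adjusted p = 0.0108). In MDA-MB-436, 1 of 18 was called at low serum, against 10.5% of all genes, and 3 of 15 at standard serum, against 12.5%. The first was SPOCK1, a testican, which rose from 31.5 ± 2.56 to 81.9 ± 1.21 (1.38, SE 0.0665, adjusted p = 5.6e-21). In standard serum SPOCK1 (1.57, SE 0.12, adjusted p = 6.18e-09) and ACAN (2.33, SE 0.616, adjusted p = 0.00434, from 0.110 ± 0.0499 to 0.536 ± 0.289, not called by DESeq2) rose and HSPG2, perlecan, fell (-1.06, SE 0.194, adjusted p = 0.00558). Of 21 genes that build chondroitin and dermatan sulfate chains, which versican and decorin carry, 0 (11 at an unadjusted p under 0.05, 0 by DESeq2) and 1 were called by edgeR in MDA-MB-231 and 2 and 1 in MDA-MB-436, all higher. XYLT1, which starts the chain, rose in MDA-MB-436 from 2.89 ± 0.455 to 8.96 ± 0.0672 in low serum (1.62, SE 0.17, adjusted p = 3.44e-10) and by 1.61 (SE 0.158, adjusted p = 4.08e-07) in standard serum. CSGALNACT1, which adds its first N-acetylgalactosamine, rose in MDA-MB-436 of low serum (1.43, SE 0.136, adjusted p = 7.93e-12) and in MDA-MB-231 of standard serum (2.02, SE 0.234, adjusted p = 2.26e-06). The chain synthesis medians lay between -0.09 and 0.07. For both lists of this paragraph, the shares of all genes called were 5.90% and 7.69% in MDA-MB-231 and 10.5% and 12.5% in MDA-MB-436.

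Among microfibril and other matrix glycoproteins, 2 of 27 tested were called higher in MDA-MB-231 of low serum and 0 of 25 by edgeR in standard serum (6 at an unadjusted p under 0.05, 0 by DESeq2). In MDA-MB-436, 7 were called higher and 1 lower in low serum, and 7 higher and 3 lower in standard serum. Of all genes, 5.90% and 7.69% were called in MDA-MB-231 and 10.5% and 12.5% in MDA-MB-436. TGFBI, an integrin-binding matrix protein, rose in MDA-MB-231 of low serum from 23.1 ± 0.515 to 117 ± 5.12 (2.34, SE 0.0675, adjusted p = 4.37e-28) and in MDA-MB-436 of standard serum (1.55, SE 0.0901, adjusted p = 1.56e-10). POSTN, periostin, rose in MDA-MB-231 of low serum from 0.131 ± 0.0244 to 0.469 ± 0.0258 (1.81, SE 0.624, adjusted p = 0.0189, not called by DESeq2). SPON2 rose in MDA-MB-436 of low serum from 7.58 ± 0.479 to 76.0 ± 0.482 (3.32, SE 0.081, adjusted p = 4.28e-31), and TINAGL1 from 4.26 ± 0.240 to 35.6 ± 3.09 (3.06, SE 0.0903, adjusted p = 3.98e-28). FBN2, fibrillin-2, rose there by 1.55 (SE 0.0521, adjusted p = 3.39e-26), and ECM1 fell in MDA-MB-436 of standard serum from 74.8 ± 4.99 to 17.3 ± 0.372 (-2.11, SE 0.085, adjusted p = 1.01e-12). The medians were -0.07 and 0.02 in MDA-MB-231 and 0.46 and 0.26 in MDA-MB-436.

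**Figure D4:**
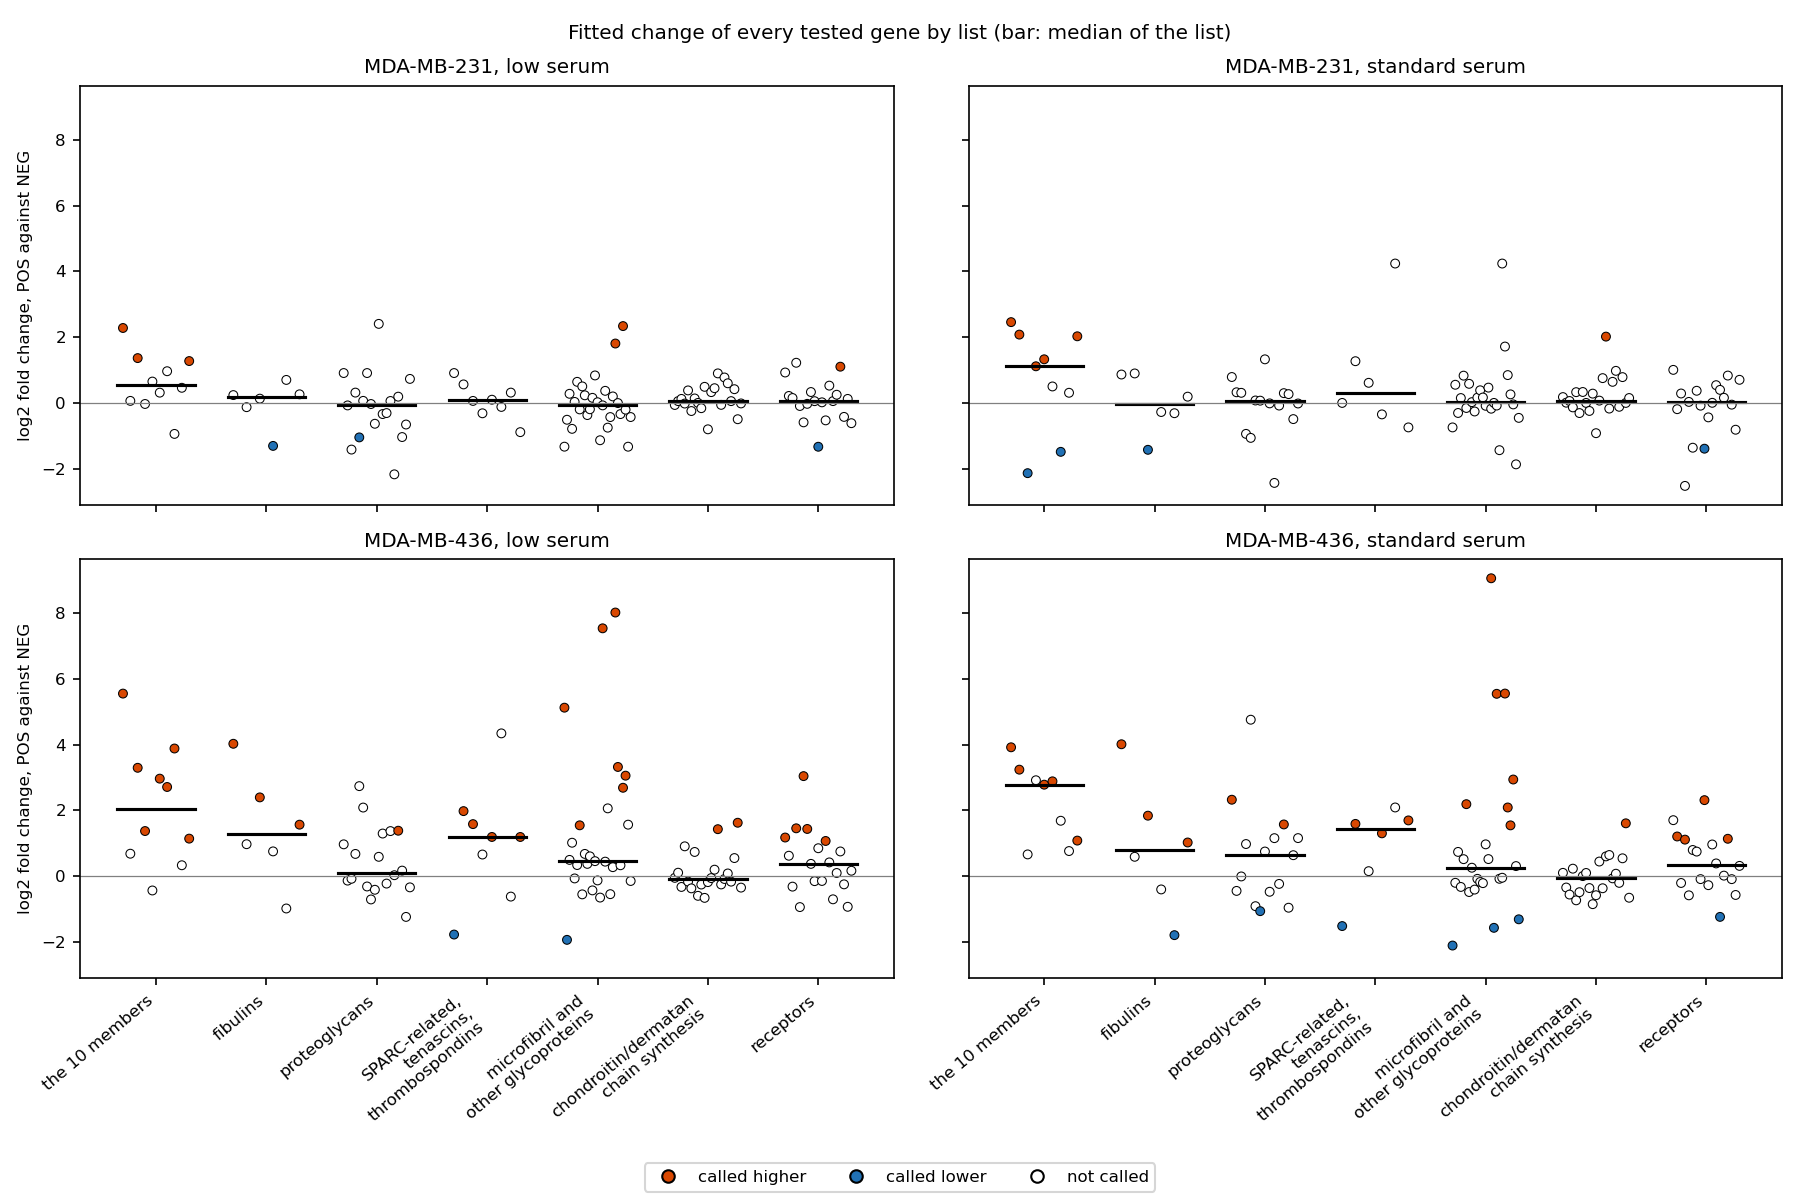
Fitted log2 fold change of 7TGP-POS against 7TGP-NEG for every tested gene of the 10 and of the 6 related lists (points, orange called higher, blue called lower, white not called; bars are medians), for each line and serum condition. Fitted values of genes near 0 counts in a group depend on the fit's prior and are no measure of size. The median of the 10 genes is 2.04 and 2.78 in MDA-MB-436 and 0.56 and 1.11 in MDA-MB-231.

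Receptors that bind the 10 proteins were counted next. In MDA-MB-231 1 of 19 tested was called higher and 1 lower at low serum, against 5.90% of all genes called, and 1 of 18 lower at standard serum, against 7.69%. In MDA-MB-436 5 of 19 were called higher at low serum, against 10.5% of all genes, and DESeq2 called 2 of them. At standard serum 4 of 18 were called higher and 1 lower, against 12.5%. ITGB3, the beta subunit of the integrin that binds fibronectin and thrombospondin, fell in MDA-MB-231 7TGP-POS from 9.67 ± 0.671 to 3.84 ± 0.0761 normalised CPM in low serum (-1.33, SE 0.15, adjusted p = 1.09e-09) and from 22.0 ± 1.73 to 8.41 ± 1.23 in standard serum (-1.39, SE 0.159, adjusted p = 5.72e-06). SDC2, a syndecan, rose in MDA-MB-231 of low serum (1.10, SE 0.0691, adjusted p = 7.89e-17) and in MDA-MB-436 of standard serum (1.14, SE 0.0823, adjusted p = 2.81e-09). ITGA4, the alpha subunit of a fibronectin receptor, rose in MDA-MB-436 from 17.3 ± 0.143 to 47.5 ± 0.421 in low serum (1.46, SE 0.0775, adjusted p = 1.65e-19) and from 10.3 ± 0.395 to 22.2 ± 0.704 in standard serum (1.11, SE 0.119, adjusted p = 6.81e-07). CD44, a hyaluronan receptor, rose in MDA-MB-436 of standard serum (1.21, SE 0.074, adjusted p = 3.03e-10), and ITGA9, which binds tenascin-C (1.44, SE 0.221, adjusted p = 5.83e-07), and CD36, which binds thrombospondins (1.18, SE 0.337, adjusted p = 0.00316, not called by DESeq2), rose there in low serum.

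Markers of other cells were measured beside these changes because fibroblasts make many of the same proteins. For all marker counts, the shares of all genes called were 5.90% and 7.69% in MDA-MB-231 and 10.5% and 12.5% in MDA-MB-436. Of 7 fibroblast markers 0 were called by edgeR in MDA-MB-231 in either serum condition (2 and 1 at an unadjusted p under 0.05, and 0 by DESeq2). In MDA-MB-436 3 rose and 2 fell in each, PDGFRB (2.52 and 1.83), COL1A1 (1.06 and 1.02) and COL3A1 (4.56 and 6.22) being higher and FAP (-1.11 and -1.70) and PDPN (-2.30 and -2.51) lower on the log2 scale. The summed level of the list ran from 53.9 to 54.9 normalised CPM in MDA-MB-436 7TGP-NEG and from 37.7 to 39.1 in 7TGP-POS of low serum, and from 59.7 to 61.0 and from 30.8 to 33.6 in standard serum. In MDA-MB-231 it ran from 31.3 to 34.0 and from 29.0 to 35.5 in low serum, and from 11.5 to 13.2 and from 17.5 to 17.9 in standard serum. The only fibroblast marker at 0 in a whole group was PDPN, in MDA-MB-231 7TGP-POS of standard serum. Of 3 mesenchymal markers VIM, an intermediate filament gene, fell in MDA-MB-231 from 5515 ± 154 normalised CPM in 7TGP-NEG to 2657 ± 46.7 in 7TGP-POS of low serum (-1.05, SE 0.0516, adjusted p = 2.69e-20) and from 5520 ± 289 to 2699 ± 87.0 of standard serum (-1.03, SE 0.0789, adjusted p = 1.17e-08). Other changes of these markers stayed under the fold threshold. CDH2 rose in MDA-MB-231 of low serum (0.80, adjusted p = 0.00432) and in MDA-MB-436 of standard serum (0.75, adjusted p = 6.62e-07). VIM rose in MDA-MB-436 of low (0.16, adjusted p = 0.00732) and standard serum (0.49, adjusted p = 4.77e-05). The remaining marker, ZEB1, fell in MDA-MB-436 of low serum (-0.21, adjusted p = 0.00427). Of 3 leukocyte markers PTPRC rose in MDA-MB-231 of low serum (1.14, SE 0.188, adjusted p = 3.61e-06, with group means of 2.19 and 4.82 normalised CPM), CD14 reached 10.8 in MDA-MB-436 7TGP-POS of low serum, and CD3E was at most 0.0375 in any group. The summed leukocyte level ran from 7.14 to 8.97 in MDA-MB-231 7TGP-NEG and from 12.4 to 12.6 in 7TGP-POS of low serum. Of 2 endothelial markers CDH5 was at most 0.155 and VWF at most 1.56. Of 5 epithelial markers ESRP1 fell in MDA-MB-231 (-1.08, SE 0.317, adjusted p = 0.013, not called by DESeq2) and CLDN4 in MDA-MB-436 (-1.21, SE 0.119, adjusted p = 1.71e-07) of standard serum. Of the hormone receptors and ERBB2, PGR fell in MDA-MB-436 of low serum (-1.93, SE 0.464, adjusted p = 0.000545), and ESR1 was called higher in MDA-MB-231 7TGP-POS of standard serum, at 0.699 normalised CPM against 0 counts in 7TGP-NEG. Of 9 Wnt feedback genes 1 was called higher in MDA-MB-231 in each serum condition (LGR5, 1.40, adjusted p = 1.75e-06 in low serum, and RNF43, 1.11, adjusted p = 0.000166 in standard serum). In MDA-MB-436 1 and 2 were called lower (NKD1, -1.21, adjusted p = 1e-05, and then RNF43, -2.40, adjusted p = 0.00828, and SP5, -1.13, adjusted p = 0.000644). Under the fold threshold LEF1 rose in MDA-MB-436 (0.50, adjusted p = 1.36e-05, and 0.90, adjusted p = 9.13e-07). In low serum ZNRF3 rose (0.19) and SP5 fell (-0.59) there. In MDA-MB-231 of low serum AXIN2 (0.65), RNF43 (0.60) and LEF1 (0.63) rose and SP5 fell (-0.55). The summed level in MDA-MB-436 ran from 62.2 to 63.9 in 7TGP-NEG and from 66.8 to 69.4 in 7TGP-POS of low serum. In standard serum it ran from 49.6 to 51.3 and from 61.3 to 62.8. The part of all these markers in the changes of the 10 genes was not tested.

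Chromosomal neighbours were measured as well. For each gene the median log2 fold change of its 34 to 50 nearest expressed genes lay between -0.39 and 0.39 over both lines and serum conditions. Around FBLN1 it was -0.07 and -0.02 in low serum for MDA-MB-231 and MDA-MB-436, against 1.36 and 3.30 for FBLN1 itself, and around THBS1 in MDA-MB-436 it was -0.08 in low serum and -0.13 in standard serum. In MDA-MB-436 the median around VCAN was 0.23 and 0.34 (low and standard serum), against 1.14 and 1.08 for VCAN itself. Around FN1 it was 0.24 and 0.20 there, against 1.37 and 0.66 for FN1 itself. Antisense or oppositely oriented genes overlap VCAN, SPARC, TNC, THBS1 and THBS2, and whether counting used strand is not stated, so reads of each pair cannot be told apart.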

How the data were processed

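Total RNA of 16 cultures was sequenced as read pairs. The authors aligned the reads to rRNA with Bowtie and to hg19 with STAR (2.6.1a in the submitters' processing notes), and deposited gene-level counts and TPM on Gencode v19 in 1 table of each unit per serum condition. The study's methods give a different library type for each serum condition, the labels the same stranded mRNA kit for all, and whether counting used strand is not given in the sources used here. Here the deposited counts of protein-coding genes (Gencode v44lift37 biotypes, matched for 55538 of 57820 identifiers) whose 8 libraries per serum condition summed to at least 10 counts were fitted with edgeR 4.0.16 (TMM, robust quasi-likelihood, 1 model of 4 groups per serum condition), in R 4.3.3. Genes were called at a Benjamini-Hochberg adjusted p below 0.05 over all tested genes and a log2 fold change of at least 1. The standard error is the log2 fold change over the square root of F. Normalised CPM are counts over the TMM-scaled library size. The deposited TPM values were used for shares among genes and, with limma 3.58.1 on log2(TPM + 1) and log2(TPM + 0.1), as alternatives, as were DESeq2 1.42.0, its size factors, filterByExpr, all biotypes, no fold threshold, a replicate block and leaving out each replicate. The fit was tested on simulated counts.

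The 10 genes and all lists were chosen with earlier results of these data known. Named from each related list were at most 3 called genes per comparison by the smallest adjusted p, and for each of the 10 genes the 2 with the most similar pattern. Genes at 3 or fewer counts in a group are given by counts, with an exact binomial 95% interval of the ratio, or against a floor of 3 counts over the group. Promoter windows came from a RefSeq table and were placed on GRCh37 by exact match. No sample was left out.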

Additional observations from a re-analysis of the deposited data

Results flagged for a closer look

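The change with reporter state differed between the lines, by the test of the difference itself, for 11 results. On the log2 scale (MDA-MB-231 minus MDA-MB-436) the low serum differences were -1.93 for FBLN1, -1.4 for FN1, -2.65 for SPARC and -1.75 for THBS1, and those of standard serum were -1.16 for FBLN1, -2.8 for FN1, -1.46 for SPARC and -2.38 for THBS1. For CTHRC1 in low serum (adjusted p = 0.000345) and THBS2 in low serum (adjusted p = 6.2e-05) and standard serum (adjusted p = 0.0108) no size is given, since MDA-MB-436 7TGP-NEG held 2, 1 and 3 counts. In all 11 the change in MDA-MB-436 was the more positive, and for FN1 in standard serum and THBS2 the fitted changes of the lines had opposite signs. For FN1 in low serum the signs also differed, at -0.03 in MDA-MB-231 and 1.37 in MDA-MB-436. The MDA-MB-231 value was not called, and its sign turned under alternatives. Sets of 2 replicates are too small for a search for single deviating samples.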

How the results depend on the processing

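With 2 replicates per group, single gene values of 9 genes (DCN was too low to include) kept their direction and side of the threshold in 678 of 704 results that leave out a replicate and in 810 of 863 under other alternatives. Leaving out a replicate assumes that the lone sample varies like the other groups. Low counts limit FBLN1, VCAN and SPARC in MDA-MB-231, and SPARC in the reporter-negative cells of the other line. They also limit CTHRC1 in both lines and THBS2, LUM and DCN throughout.

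On log2(TPM + 1), which shrinks low genes, the members called were 1 and 2 in MDA-MB-231 (low and standard serum) and 4 between 7TGP-NEG sublines of standard serum, and the genes called by reporter state were 302, 793 and, for the difference, 1117 at low serum, then 522 and 941 at standard serum. The split of higher against lower in low serum moved from 563 and 385 to 140 and 162 in MDA-MB-231 and from 1047 and 647 to 322 and 471 in MDA-MB-436. TPM were not rescaled to protein-coding genes, whose share of TPM differed between the low serum groups. It was 50.7% and 52.3% in MDA-MB-231 7TGP-NEG and 46.8% and 41.0% in 7TGP-POS. In MDA-MB-436 it was 69.6% and 64.2%, then 51.1% and 56.2%. In standard serum it ran from 94.3% to 95.7%. The part of these shares and of the shrinkage in the moved calls was not tested. With all biotypes 10397 and 9749 genes were called between the 7TGP-NEG and 7TGP-POS sublines of low serum. Without the fold threshold the members called in MDA-MB-231 of low serum were 7, and the genes called were 6250, 8348, 7345, 12730 and 12607 in low serum, followed by 5084, 7631, 6355, 12140 and 12239 under standard serum (MDA-MB-231, MDA-MB-436, difference, 7TGP-NEG, 7TGP-POS), since fewer criteria apply.

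Signs turned for values that were not called. These were FN1 in MDA-MB-231 of low serum (0.005 with all biotypes, -0.077 to 0.011 without a replicate), the VCAN difference in low serum (-0.412 and -0.109 on the TPM scales, -0.036 to 0.28 without a replicate) and in standard serum (from 0.945 to -0.732, adjusted p = 0.00567 and under the fold threshold, and to -0.430), the TNC difference in low serum (-0.032 to 0.311 without a replicate), SPARC between 7TGP-NEG sublines of low serum (-0.164 to 0.282 without a replicate), LUM in MDA-MB-436 of low serum (-1.629 to 0.224 without a replicate), and TNC between 7TGP-POS sublines of standard serum (-0.006 with DESeq2 and with its size factors, -0.003 with filterByExpr, -0.028 with all biotypes, -0.079 to 0.09 without a replicate). The cause was not tested.

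Leaving out a replicate, members called ranged from 3 to 4 and 6 to 7 in low serum (MDA-MB-231, MDA-MB-436) and 5 to 7 and 4 to 5 in standard serum, stayed at 6 and ranged from 4 to 6 for the difference, and from 7 to 9, 9 to 9, 6 to 7 and 5 to 6 between lines. The genes called ranged, in low serum, from 827 to 941, 1578 to 1689, 1743 to 1874, 6495 to 6719 and 6058 to 6244, and in standard serum from 1006 to 1190, 1704 to 1982, 1932 to 2261, 6909 to 7189 and 6688 to 6991.

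Replicate numbers are shared between groups, but deviations of same-numbered samples correlated by -0.183 to 0.0786 in low serum and -0.0393 to 0.397 in standard serum, where 5 of 6 pairs of groups were above 0.1. The labels name no shared batch or day, and the 2 pairs of each comparison are too few to show pairing from the data, so the numbers were not used to pair samples. With the replicate number as a block, members called were 3, 7, 6, 8 and 9 at low serum and 7, 5, 5, 7 and 6 at standard serum, as without it, and genes called were 926, 1667, 1854, 6692 and 6218 and then 1170, 1938, 2158, 7171 and 6942.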

Other observations

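Set side by side without a test, because serum cannot be told apart from day and library type, THBS1 measured 1429 ± 42.9 (SD, n = 2) normalised CPM in MDA-MB-231 7TGP-NEG of low serum and 349.6 ± 22.1 in standard serum, and 49.7 ± 0.0734 and 9.84 ± 0.122 in MDA-MB-436 7TGP-NEG. FN1 in MDA-MB-231 7TGP-POS measured 1342 ± 57.5 and 384 ± 26.6, whereas in 7TGP-NEG it measured 1373 ± 1.65 and 1689 ± 203.5. VCAN in MDA-MB-231 7TGP-NEG measured 1.12 ± 0.0704 and 0.113 ± 0.0611, and in MDA-MB-436 7TGP-NEG 8.46 ± 1.36 and 6.92 ± 0.597.

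Over the 16 libraries, after the mean of each serum condition was taken out, the pairs of genes most like each of the 9 genes tested in both conditions reached Pearson coefficients of 0.958 to 0.998 among 12861 genes. They were WTAP and GFRA1 for FBLN1, SNRNP200 and ZMYM4 for VCAN, TMX4 and KLRC2 for CTHRC1, HYAL2 and PMP22 for FN1, DAPK1 and GDA for SPARC, PCDHB15 and TNFRSF19 for TNC, PXDN and FYN for THBS1, LRCH3 and PCDHB12 for THBS2, and APOBEC3G and HCAR1 for LUM. The libraries fall into 2 cell lines, which share most of what these coefficients measure, so they are a description of likeness only.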
